A study of Saccharomyces cerevisiae with 16 samples.

Results

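The late change in wild-type yeast (WT, Saccharomyces cerevisiae) was measured by setting the sample taken at 23 h against the 3 samples taken at 1, 5 and 8 h. These 4 samples, of 16 in the series, were picked by strain and time, and the comparison was chosen with earlier results of these data known. All 4 are Cy3-labelled and carry values taken as log2 ratios to WT at 0 h, so that this reference cancels in the difference. Per the labels, a log-phase WT culture (optical density 0.5) was washed and diluted to 0.05 in SC medium holding 0.5 mM phosphate, a level they call intermediate. Every sample of the series shares that medium, and a treatment tag that reads 0.5 M was taken as a slip against the 500 µM of the titles. The series also holds the strain PHO84c at the same times, and its title speaks of cells with abundant high-affinity transporters. The sources used here do not say how that strain was built or what background either strain has.

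Budding yeast senses phosphate through the PHO pathway. When phosphate runs short, the kinase inhibitor Pho81 blocks the Pho80-Pho85 cyclin-kinase, and the transcription factor Pho4 enters the nucleus and turns on transporters, phosphatases and the enzymes that handle polyphosphate. A batch culture kept overnight also uses up glucose, stops dividing and moves from fermentation to respiration, so that phosphate, carbon supply and growth change with time in the same flask. The labels give no cell density, glucose or phosphate level at 23 h, and no time between 8 and 23 h was sampled.

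The 3 early samples are different times and not repeats of a condition, and the 23 h sample is alone. The spread behind each test is therefore the scatter among 1, 5 and 8 h, and the 23 h sample was assumed to vary like them. Each of the 4 samples has an array block number of its own, so that time and array block cannot be told apart. The labels do not say whether they came from separate cultures, and the p-values cover only the spread between these samples. With 1 sample against 3, an exact permutation test of a single probe cannot give a p below 0.25, and only the fit across all probes was used. Of 6255 probes, 6134 had a value in all 4 samples and were tested, 84 lacked at least 1 early value and 37 lacked only the 23 h value. Ratios carry no brightness, so that dim and bright probes could not be told apart, and the number of arrays limits the precision.

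A gene name is listed for 1608 of the 6255 probes, and names may not describe the RNA that a probe detects. Cytosolic ribosomal proteins form the ribosome in fixed proportions and their genes are known to rise and fall together, yet the 54 tested probes listed under their names ran from -2.93 to 4.86 in the late difference. Their SD was 1.65, beside 1.59 over all 1574 listed probes tested. For 11 pairs of near-identical ribosomal gene copies, such as RPL11A and RPL11B, the gap between the probes of a pair had a median of 1.69, beside 1.37 over all pairs of listed probes. The probes of 4 of these 11 pairs lay on opposite sides of 0. RPL11A stood at -1.72 and RPL11B at 4.86. The name FDH2, of a formate dehydrogenase, is listed for 2 probes, at 3.11 and -2.24. A name below therefore stands for the probe listed under it, and the role given with it is background on the gene of that name. Whether the listing or the samples account for this scatter was not tested.

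At 23 h the WT sample differed from the early ones across much of the array, in both directions. A call here needs a difference of at least 1 on the log2 scale, which is 2-fold, and an adjusted p under 0.05 in limma (Benjamini-Hochberg, across the 6134 probes). By this rule 1331 probes rose and 1539 fell at 23 h, or 21.7% and 25.1% of those tested (46.8% together). At any size of difference, 4217 probes passed the adjusted p. A further 18 probes differed by at least 2-fold without passing the test. The 23 h value lay above all 3 early values at 2386 probes and below all of them at 3135, so that it was outside the early range at 90% of the probes. At 4475 probes (73.0%) the gap from 23 h to the nearest early value exceeded the whole early range. Even a sample like the early ones would often lie outside a range of 3 values, and these shares were given no test. The 23 h values were also the widest, with an SD of 1.54, beside 0.46, 0.40 and 0.37 at 1, 5 and 8 h. The median difference was -0.19 (SD 1.62 over probes), and the median standard error (SE) of the fit was 0.188. Centred on its own median, each sample gave 1556 rises and 1273 falls, so that the direction in the majority depends on the centring, which moved the median difference to 0.02. Quantile normalization, which gives all samples the same spread, left 489 rises and 444 falls.

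**Figure D1:**
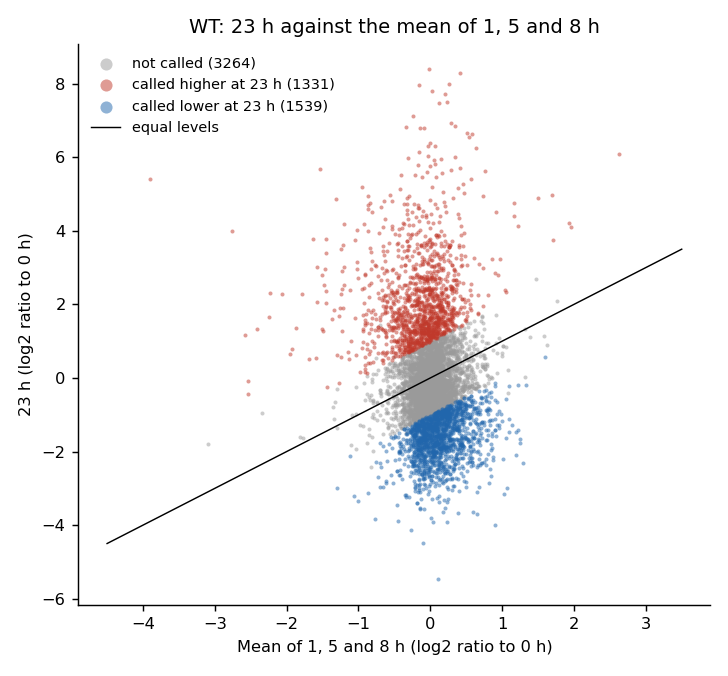
Each point is 1 of 6134 probes, with the mean of the WT samples at 1, 5 and 8 h on the x axis and the 23 h sample on the y axis, both as log2 ratios to 0 h; the line marks equal levels and colours mark the 1331 rises and 1539 falls. The cloud is narrow along x and wide along y, and most called probes have an early mean near 0.

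The rises reached further than the falls. The called rises had a median of 1.97 (3.91-fold) and the called falls one of -1.67 (3.18-fold). Rises of at least 8-fold numbered 297 and falls of that size 68. At 16-fold the counts were 143 and 9, and at 32-fold 63 and 1. The largest rise was 9.32 ± 0.395 (SE) at the unnamed probe 7771 (limma adjusted p = 2.85e-05). This probe stood at -4.35, -4.06 and -3.29 at 1, 5 and 8 h and at 5.42 at 23 h, so that its early fall adds to the difference. Probe 2468, also unnamed, rose by 8.40 ± 0.282 (limma adjusted p = 1.5e-05) from early values of 0.28, -0.41 and 0.09. The largest unnamed falls were those of probe 9357 (-4.91 ± 0.324) and probe 13851 (-4.38 ± 0.256).

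**Figure D2:**
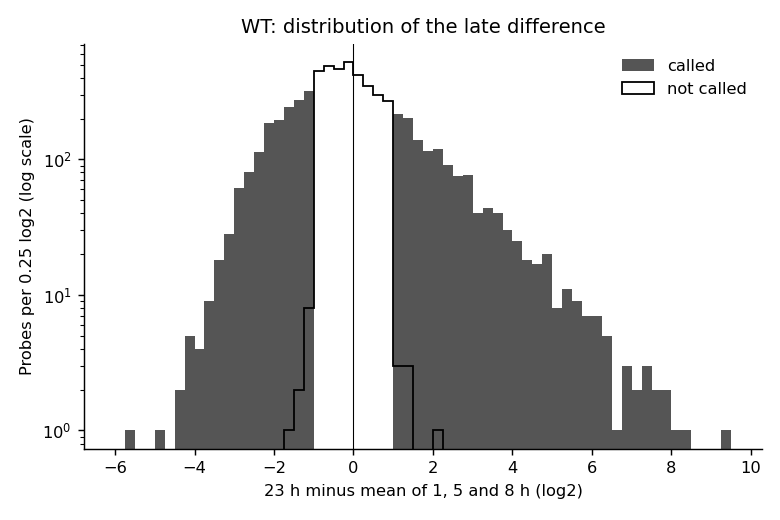
The x axis is the late difference in WT (23 h minus the mean of 1, 5 and 8 h, log2) and the y axis the number of probes per step of 0.25 on a log scale, filled for called probes and outlined for the rest. The right tail runs to 9.32 and the left tail to -5.58.

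Among listed probes the 10 largest rises ran from 5.39 to 7.77. FET4, named for the low-affinity iron transporter of the plasma membrane, led them. Its probe stood at -0.29, 0.02 and 0.32 at the early times, in their order, and at 7.79 at 23 h, a rise of 7.77 ± 0.254 or 218-fold (limma adjusted p = 1.4e-05). The early values lie on both sides of 0 h and far below the late one. GRH1, named for a Golgi protein of the secretory pathway, stood at 0.72, 0.39 and 0.49 at the early times and at 6.56 at 23 h, a rise of 6.02 ± 0.194. PAU6, a member of the seripauperin family of cell wall proteins, stood at -0.13, 0.28 and 0.28 and then at 5.94 (5.79 ± 0.222). EPT1, named for an enzyme that makes phosphatidylethanolamine, moved from 0.17, -0.06 and -0.13 to 5.76 (5.76 ± 0.189). In these 4 probes the late value was more than 5 above every early one.

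KOG1, a subunit of the TOR complex 1 that couples growth to nutrients, stood at 0.00, 0.39 and 0.65 and then at 6.01 (5.67 ± 0.268). GIM4, a subunit of the prefoldin chaperone, moved from -0.12, 0.09 and -0.10 to 5.61 (5.65 ± 0.178). RPF1, a factor for the large ribosomal subunit, moved from -0.02, 0.25 and 0.27 to 5.56 (5.39 ± 0.192). Like the 4 probes above, these 3 had early values near 0 h. The remaining 3 of the 10 had at least 1 early value near or below -1. XDJ1, named for a DnaJ-type chaperone, stood at -2.31, -0.89 and 0.67 and then at 4.76. Its early samples are far apart, and its rise of 5.61 has an SE of 0.990 (limma adjusted p = 0.00273), the widest of the 10. SCT1, an acyltransferase at the start of phospholipid synthesis, stood at -0.72, -1.18 and -0.69 and then at 4.70 (5.56 ± 0.241). PPG1, a protein phosphatase, stood at -1.56, -1.14 and -0.89 and then at 4.19 (5.39 ± 0.275).

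The 10 largest listed falls ran from -3.16 to -5.58. VAM6, a subunit of the HOPS complex that tethers membranes at the vacuole, stood at 0.14, 0.05 and 0.15 and then at -5.47, a difference of -5.58 ± 0.164 (limma adjusted p = 1.34e-05). It was the 1 fall of at least 32-fold. SEC9, a SNARE protein of secretion, stood at 0.79, 0.36 and 0.64 and then at -3.64 (-4.24 ± 0.214). GIP1, a phosphatase regulator of sporulation, stood at 0.02, 0.54 and 0.12 and then at -3.92 (-4.15 ± 0.241). SEF1, named for a zinc cluster protein, moved from 0.06, -0.48 and -0.38 to -4.13 (-3.86 ± 0.246). RME1, a repressor of meiosis, moved from 0.27, 0.12 and 0.19 to -3.31 (-3.51 ± 0.168). In each of these 5 the late value lay more than 3 below the lowest early one.

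SEC21, a coat subunit of vesicles between Golgi and endoplasmic reticulum, moved from -0.25, -0.03 and -0.13 to -3.55 (-3.41 ± 0.176). HTS1, the histidyl-tRNA synthetase, stood high early (0.95, 0.71 and 0.83) and at -2.46 at 23 h (-3.29 ± 0.178). NDE1, a mitochondrial NADH dehydrogenase, stood at 0.76, 0.59 and -0.39 and then at -2.94, with the widest error of the 10 (-3.25 ± 0.435, limma adjusted p = 0.000826). CDC28, the kinase that drives the cell cycle, moved from -0.19, -0.04 and -0.32 to -3.39 (-3.21 ± 0.184). PTC1, another protein phosphatase, moved from -0.08, -0.18 and -0.14 to -3.29 (-3.16 ± 0.164). Over these 20 probes limma's adjusted p lay between 1.34e-05 and 0.00273, and no early value overlapped the late one.

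**Figure D3:**
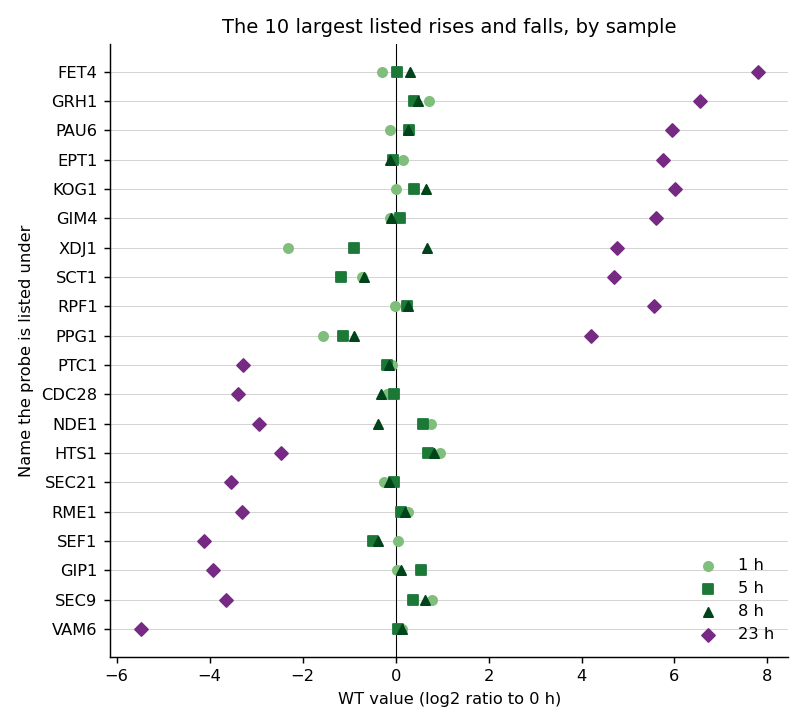
The x axis is the WT value as log2 ratio to 0 h and each row a probe by its listed name, with a marker for each of the samples at 1, 5, 8 and 23 h. Early markers lie between -2.31 and 0.95, and the 23 h marker stands apart from them in all 20 rows.

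In most called probes the difference comes from the 23 h sample and not from the early ones. Of the 1331 rises, 1185 (89.0%) stood at least 1 above 0 h at 23 h, and 706 (53.0%) had an early mean within 0.25 of 0 h. Of the 1539 falls, 1327 (86.2%) stood at least 1 below 0 h at 23 h, and 948 (61.6%) had an early mean within 0.25. The other 146 rises and 212 falls were within 1 of 0 h at 23 h, so that the early samples contribute to their calls. How many of all probes tested had an early mean within 0.25 of 0 h, or at least 1 from it, was not counted. A small group of the called probes crossed over. Early means of -1 or less were followed by a 23 h value of 1 or more in 44 of the rises, and the mirror image held for 14 of the falls. SCM4, named for a suppressor of a cell cycle mutation, was among the first at -1.86, -2.52 and -2.30 early and 2.31 at 23 h (4.54 ± 0.272, limma adjusted p = 5.56e-05). FAA4, a fatty acid activating enzyme, stood at -2.08, -0.73 and -0.93 and then at 3.51 (4.76 ± 0.505). DAP2, a vacuolar aminopeptidase, stood at -1.54, -1.02 and -0.81 and then at 2.38 (3.51 ± 0.295).

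Called probes that were already displaced in their late direction were few, as displaced early values were over the whole array. Values at least 1 from 0 h in either direction made up 4.10%, 2.35% and 2.02% of the WT samples at 1, 5 and 8 h. An early mean of at least 1 preceded a further rise in 11 of the 1331, and an early mean of -1 or less a further fall in 4 of the 1539. GAS4, named for a glucan-remodelling enzyme of the spore wall, belongs to these 11, with 1.73, 1.84 and 2.21 at the early times and 4.21 at 23 h (2.28 ± 0.230, limma adjusted p = 0.000266). All of its WT values were above 0 h, and its late difference was -1.52 after quantile normalization. CIT2, the citrate synthase of peroxisomes, was low early without reaching a mean of -1 (-0.71, -0.94 and -0.96) and stood at -3.14 at 23 h (-2.26 ± 0.183).

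Early values of the called probes lay slightly on the opposite side of 0 h from the late ones. A call uses these same early values. Choosing large rises favours low early values and choosing large falls favours high ones, so that the selection alone can give such a pattern. Over the rises the medians at 1, 5 and 8 h were -0.14, -0.09 and -0.07, and the 23 h median was 1.82. Over the falls they were 0.15, 0.11 and 0.09, and -1.59 at 23 h. The 3 early medians were closer to 0 at the later of these times. The values rose in the order 1, 5 and 8 h at 25.7% of the rises, 10.6% of the falls and 14.9% of the probes not called. They fell in that order at 10.9% of the rises, 18.1% of the falls and 16.6% of the others. FET4, KOG1, XDJ1 and PPG1 are among the rises that climbed through the early times. These shares describe 3 arrays that all probes have in common, and they were given no test. The 8 h sample was the early sample nearest to 23 h at 37.6% of the rises and 31.6% of the falls, beside 33.1% of all probes tested. Compared with 8 h alone, 1330 probes rose and 1517 fell.

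The series title speaks of a delayed response to phosphate starvation, and for that reason all listed PHO regulon members are given. The limit on names stated above holds for them too, and whether their probes report that response was not tested. Of 20 regulon names, 7 were listed, and the probe for the high-affinity transporter PHO84 and that for the secreted acid phosphatase PHO5 were not among the listed names. VTC4, the enzyme that makes polyphosphate in the vacuole, was the 1 of 7 that passed (14.3%, beside 46.2% of all listed probes). It stood at -0.34, -0.30 and -0.33 at the early times and at 1.83 at 23 h, a rise of 2.16 ± 0.161 or 4.46-fold (limma adjusted p = 9.67e-05). Its early samples lie close together, with an SD of 0.0233. The other 6 did not pass.

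PHO81, the kinase inhibitor of the pathway, stood at -1.40, -0.12 and -0.03 and then at 0.58 (1.09 ± 0.527, limma adjusted p = 0.108). Its 1 h sample is far below the others, and without the 8 h sample PHO81 passed (1.34, limma adjusted p = 0.0329). GIT1, a transporter of glycerophosphoinositol that brings in phosphate, stood at 0.15, 0.32, -0.08 and 0.51 (0.39 ± 0.207). PHM7, a membrane protein found as a phosphate-responsive gene, stood at -0.15, 0.51, 0.10 and -0.29, and its late value was below its early ones. PHO8, the vacuolar alkaline phosphatase, moved from 0.18, 0.37 and 0.30 to -0.46, a difference of -0.74 ± 0.171 under 2-fold (limma adjusted p = 0.00845). PHO3, an acid phosphatase known to respond to thiamine, moved from -0.29, -0.07 and -0.12 to -0.80 (-0.64 ± 0.177, limma adjusted p = 0.0175). HOR2, the glycerol-1-phosphatase now called GPP2, stood at 0.29, -0.14, -0.41 and -0.69 (-0.60 ± 0.282). Of these 6 listed members, 4 were lower at 23 h than their early mean. The median over the 7 was -0.45, beside -0.19 over all probes.

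Among 7 listed genes of phosphate sensing and low-affinity transport, 2 rose and 0 fell. IPK1, a kinase that makes the inositol phosphates read by SPX domain proteins, stood at 0.20, 0.17 and 0.41 and then at 3.55 (3.29 ± 0.182, limma adjusted p = 4.72e-05). PHO88, named for a membrane protein linked to phosphate transport and now called SND3, stood at -0.43, -0.38 and -0.12 and then at 0.94 (1.26 ± 0.195). The other 5 did not pass, so that 28.6% of the 7 were called, beside 46.2% of all listed probes.

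The remaining lists are described by their counts beside those of all listed probes tested, of which 332 rose (21.1%) and 395 fell (25.1%). Of the 655 tested probes on any of the 38 lists, 289 were called. In 36 of the 38 lists members were called in both directions. The share of members called ran from 14.3% to 90.9%, and list medians ran from -0.86 to 2.37. These counts were given no test.

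The highest median, 2.37, was that of the seripauperin and anaerobic genes, which are turned on when oxygen or sterol is scarce. Of 11 tested, 8 rose and 2 fell. Besides FET4, PAU6 and SCM4, given above, DAN2, a mannoprotein gene now called PAU23, stood at -1.22, -0.33 and -0.26 and then at 2.09 (2.69 ± 0.388). FET4 also sits on the zinc list, where 3 of 12 rose and 2 fell. ZAP1, the zinc-responsive transcription factor, fell from 0.11, -0.22 and -0.13 to -1.49 (-1.41 ± 0.194), so that the zinc list spans 7.77 to -1.41. Of 23 cell wall and GPI proteins, 10 rose and 5 fell. KRE1, a protein of cell wall glucan assembly, moved from -0.87, -0.58 and -0.15 to 4.81 (5.34 ± 0.286), and FLO9, a flocculin, from 0.24, -0.03 and 0.12 to -2.47 (-2.58 ± 0.183).

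Probes listed under carbon metabolism were called in both directions, as were those of most lists (36 of 38). Over all listed probes tested, 21.1% were called higher and 25.1% lower. Of 20 probes of glycolysis and fermentation, 5 rose and 8 fell, with a median of -0.65. ADH1, the alcohol dehydrogenase of fermentation, moved from 0.09, -0.02 and 0.15 to 4.72 (4.64 ± 0.169), and ENO1, an enolase, rose by 2.48 ± 0.184. GLK1, the glucokinase, moved from 0.76, 0.51 and 0.79 to -2.06 (-2.75 ± 0.190), and ALD4, the mitochondrial aldehyde dehydrogenase, fell by 2.22 on this scale. Enzymes of 1 pathway thus had probes that moved in opposite directions. Of 5 hexose transporters, HXT4 fell by 1.59, HXT7 fell by 1.54 and HXT8 rose by 1.43. Of 14 probes of the TCA and glyoxylate cycles, 2 rose and 3 fell. IDH1, a subunit of isocitrate dehydrogenase, rose by 2.28 ± 0.189, and MDH3, the peroxisomal malate dehydrogenase, fell by 1.85 ± 0.162. Of 10 probes for storage carbohydrates, PGM1, a phosphoglucomutase, rose by 2.63 and TPS1, which makes trehalose, fell by 1.82.

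Of 23 probes for the respiratory chain and ATP synthase, 5 rose and 7 fell. ATP1, the alpha subunit of the ATP synthase, moved from -0.75, -0.45 and 0.31 to 4.94 (5.24 ± 0.390), and QCR8 and COX8, subunits of complexes III and IV, rose by 3.36 and 3.31. NDE1, which passes electrons from cytosolic NADH, fell as given above. Of 23 mitochondrial ribosomal proteins, 2 rose and 5 fell, with an SD of 0.936 that is the lowest of the 38 lists. MRP51 rose by 1.52 ± 0.190 and RSM18 fell by 1.80 ± 0.223. Of 15 probes for peroxisomes and fatty acid oxidation, 5 rose and 1 fell. POT1, the thiolase of that pathway, moved from 0.09, 0.23 and 0.26 to 3.38 (3.18 ± 0.170), and POX1, the acyl-CoA oxidase, from -0.58, -0.50 and -0.50 to 1.31 (1.84 ± 0.163).

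For protein synthesis, 12 of 54 cytosolic ribosomal probes rose and 11 fell. RPL11B moved from -1.20, -0.68 and -0.73 to 3.99, and RPL15A from -0.29, -0.09 and 0.09 to -3.03 (-2.93 ± 0.203). Of 45 ribosome biogenesis probes, 10 rose and 8 fell, led by NIP7 (4.87 ± 0.288) and FAL1 (-2.90 ± 0.175), which act in 60S and 18S rRNA maturation. Of 14 translation factors, 4 rose and 2 fell. TEF4, an elongation factor 1 subunit, moved from -1.26, -0.61 and -0.59 to 3.43 (4.25 ± 0.297), and TEF1, the elongation factor itself, rose by 2.32 ± 0.171. Members of both ribosome lists were called in either direction in similar numbers.

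Of 13 general stress and heat shock probes, 1 rose and 4 fell. STI1, a co-chaperone, rose from -0.88, -1.28 and -0.90 to 3.16 (4.18 ± 0.218). SSE2 fell by 2.74, HSP82 fell by 1.44 and HSP150 fell by 1.19, and the list median was -0.72. Of 12 probes for autophagy and vacuolar proteolysis, 5 rose and 1 fell. APG1, the kinase that starts autophagy and is now called ATG1, moved from -0.25, -0.28 and -0.46 to 4.55 (4.88 ± 0.176), and APG5, now ATG5, rose by 2.84 ± 0.212. The list median of 0.55 is the third highest. Of 9 stationary phase genes, 2 rose and 1 fell.

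Of 22 cell cycle probes, 4 rose and 5 fell. CLB3, a B-type cyclin, moved from -0.63, -0.06 and 0.08 to 3.92 (4.12 ± 0.293), against the fall of CDC28, its kinase partner. Of 26 probes for DNA replication and repair, 3 rose and 7 fell. POL30, the sliding clamp, fell by 2.27 ± 0.173 and RFC3, a subunit of its loader, fell by 2.92 ± 0.173, while PMS1, a mismatch repair protein, rose by 2.77 ± 0.174. Of 27 probes for vacuolar sorting and the vacuolar ATPase, 7 rose and 10 fell. VPS53, a subunit of the GARP tethering complex, moved from 0.56, 0.01 and 0.28 to 5.65 (5.37 ± 0.240), at the other end of the range from VAM6. Of 17 mating and cell type probes, 3 rose and 6 fell, among them STE3, the receptor for a-factor, at 2.74 ± 0.164.

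**Figure D4:**
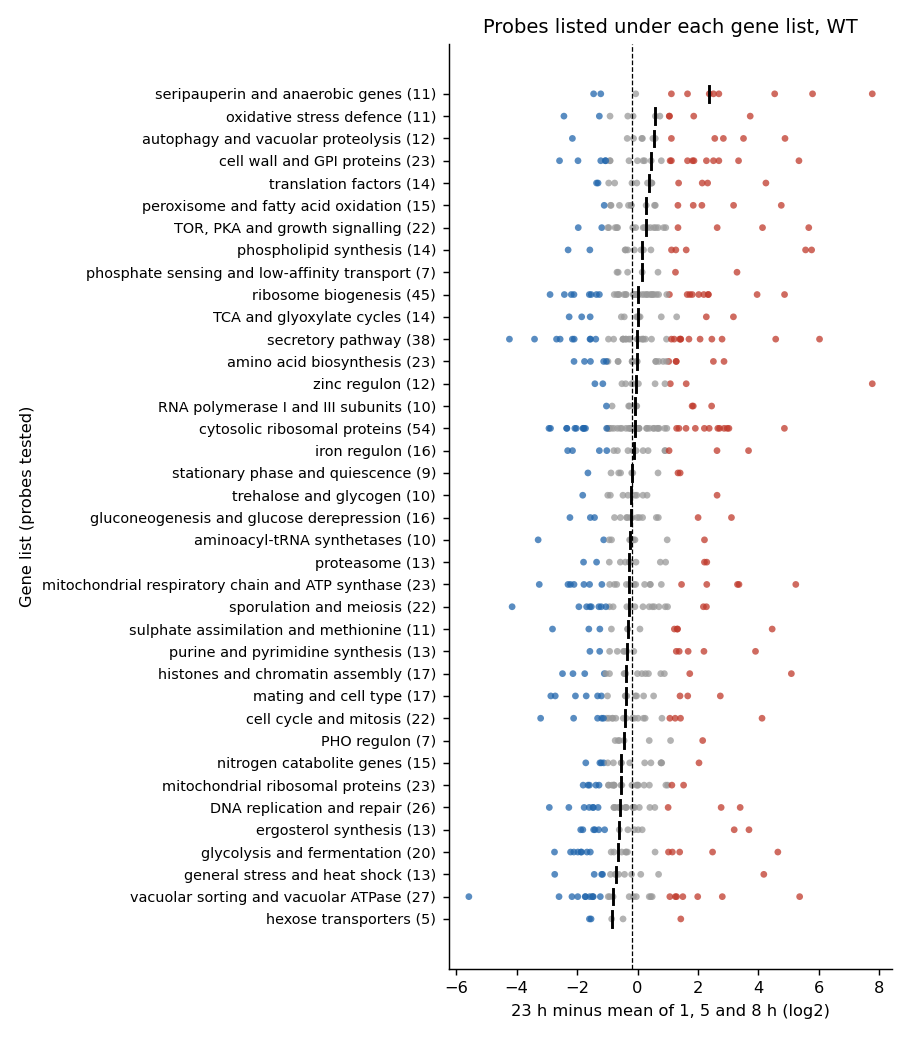
Each row is a gene list with its number of tested probes, each point a listed probe's late difference in WT (log2), red for called rises, blue for called falls and grey for probes not called. Black bars are list medians and the dashed line the median of all probes (-0.19); 36 of 38 lists hold both red and blue points.

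The same 4 times in PHO84c, which share no sample with WT, gave a closely similar late difference. Across 5935 probes with a value in all 8 later samples, the late differences of the strains had a Pearson r of 0.940 and a Spearman rho of 0.926. Probes are not independent replicates. A given time carries one and the same block number in WT and PHO84c, so that this likeness does not separate time from array block. The SD over these probes was 1.63 in WT and 1.78 in PHO84c. Of 2791 WT calls among them, 2772 had the same sign in PHO84c and 2434 were also called there in that direction. These 2434 are 87.2% of the WT calls and 77.0% of the 3159 PHO84c calls (in that strain 53.1% of 6014 probes tested were called, 24.3% higher and 28.8% lower). A single probe, the unnamed probe 767, was called in opposite directions, at -1.18 in WT and 1.5 in PHO84c. FET4 rose by 8.20 ± 0.207 in PHO84c, and its strain difference of -0.43 ± 0.337 did not pass (limma adjusted p = 0.486). VTC4 rose by 2.12 ± 0.194 there, with a strain difference of 0.04 ± 0.227 (limma adjusted p = 0.942).

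Where the late difference of WT departed from that of PHO84c was tested as a difference of differences in limma over the 8 later samples. The strain difference was called at 184 probes (3.1%), with the WT value above that of PHO84c at 62 (1.04%) and below it at 122 (2.06%). At 128 of the 184 both strains moved in the same direction, and in 102 of these PHO84c moved further. The same shares over all 5935 probes of this test were not counted. Over those probes the late difference was wider in PHO84c (SD 1.78) than in WT (SD 1.63). The 128 and 102 are therefore not read as a trait of the called probes. The count of 184 rests on few samples, since it was 101 without the WT sample at 5 h and 52 without that at 8 h. Tested for a strain difference beyond 2-fold (limma's treat), 3 probes passed.

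INP51, a phosphatase of membrane phosphoinositides, showed the largest listed strain difference. Its call, like every other strain call, was lost after quantile normalization. In WT it stood at 0.20, 0.64 and 0.51 and then at 5.28, a rise of 4.83 ± 0.219. In PHO84c it stood at 0.26, 0.44 and 0.38 and then at 1.90 (1.53), so that the early values are alike and the late ones differ, by 3.29 ± 0.291 in the late difference (limma adjusted p = 0.00296). GAS4 stood at 0.16, -0.44 and -0.20 and then at -0.63 in PHO84c, with no rise, and the strain difference was 2.75 ± 0.373 (limma adjusted p = 0.0139), which turned to -1.66 after quantile normalization (limma adjusted p = 0.999). RRD2, an activator of phosphatases of the PP2A type, fell in WT from -0.07, 0.14 and 0.21 to -1.09, and in PHO84c from 1.04, 1.04 and 1.44 to -1.95 (strain difference 1.94 ± 0.303). Its early values already differed between the strains. NGL1 stood at 0.47 in WT and -1.31 in PHO84c in the late difference (1.78 ± 0.296), and JIP3 at -0.99 and -2.75 (1.76 ± 0.353). The early values of JIP3 also differed between the strains, at -0.06, 0.28 and -0.16 in WT and 1.04, 0.70 and 0.48 in PHO84c.

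Among listed probes, the one furthest below PHO84c was ISA1, which builds iron-sulphur clusters in mitochondria. In WT it moved from 0.30, 0.70 and 0.76 to -0.15, and in PHO84c from -0.09, -0.15 and -0.10 to 1.78, a strain difference of -2.63 ± 0.293 (limma adjusted p = 0.00615). WTM1, a transcriptional modulator, had a late difference of 0.90 in WT and 3.19 in PHO84c (strain difference -2.29 ± 0.320). SBE22, a protein of Golgi to cell wall transport, rose by 1.58 in WT and 3.67 in PHO84c (-2.09 ± 0.297). SCT1 rose by 5.56 in WT and 7.48 in PHO84c (-1.92 ± 0.313), so that both strains moved the same way by different amounts. PLC1, the phospholipase that starts inositol phosphate synthesis, stood at -0.64 in WT and 1.17 in PHO84c (-1.81 ± 0.291, limma adjusted p = 0.0191). Among unnamed probes, probe 14143 differed by -4.15 ± 0.385 (1.12 in WT and 5.27 in PHO84c) and probe 3394 by 3.39 ± 0.307 (-0.32 and -3.72).

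**Figure D5:**
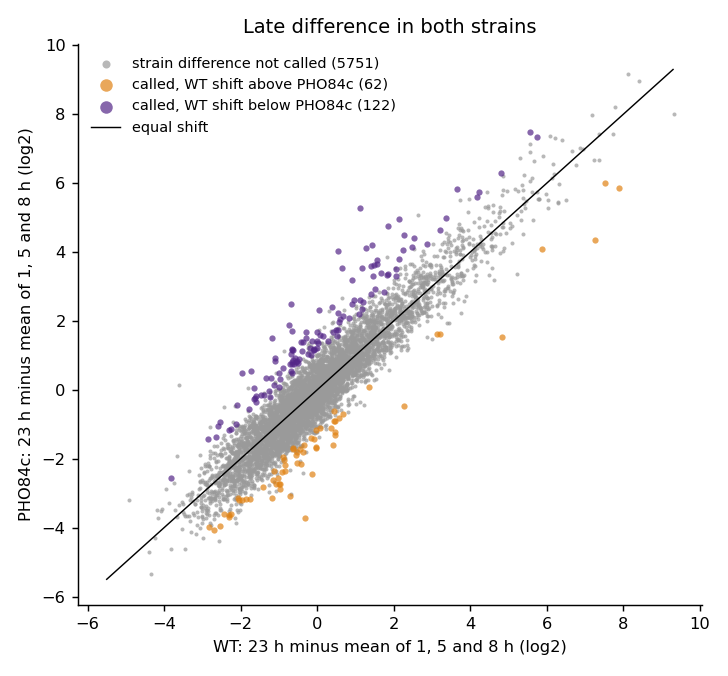
Each point is 1 of 5935 probes, with the late difference of WT on the x axis and that of PHO84c on the y axis (both 23 h minus the mean of 1, 5 and 8 h, log2); the line marks equal differences. Most probes follow the line (Pearson r 0.940), and the 62 and 122 coloured probes are those whose strain difference passed the test.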

How the data were processed

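RNA from WT and PHO84c was measured on dual-colour yeast expression arrays with Agilent reagents, and images were read with SpotReader, per the series' design text. The authors deposited values that were taken as log2 ratios. The reference was inferred from the values, and base 2 was assumed. For the WT Cy3 pair at 0 h, 2 to the power of the value averaged 1.002, beside 1.004 for base e and 1.026 for base 10. A smaller base gives an average closer to 1 for any values centred near 0, so these averages cannot settle the base. The folds given here rest on base 2. The sources used here do not state the background correction, the merging of scans or the normalization. There were 0 columns of other series.

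The difference was fitted with limma 3.58.1 (lmFit, eBayes) in R 4.3.3 on probes with all 4 values, without a pseudocount or a low-value filter, with 2 residual and 4.22 prior degrees of freedom. A simulation drew every sample with the spread of the early ones, without an array effect and with far fewer changed probes than were called here. Its calls therefore do not measure the error among the real ones. In simulated data for this comparison (6134 probes), 100% of the probes changed by 1.5 were called, 0% of those changed by 0.5, and 8 unchanged probes. For the strain difference (5935 probes), 71.2% of the probes changed by 1.5 were called, with 11 false calls.

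Listed names were matched to the R64 RefSeq table, where 1606 of 1607 distinct names were found. It gave names only. Named probes are the 10 largest called listed rises and falls, all listed PHO regulon members, up to 4 called members per list, the 5 largest listed strain differences each way and at most 2 unnamed probes each way. Of the list members so chosen, the text gives a part. The comparison, members and lists were chosen with earlier results of these data known.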

Additional observations from a re-analysis of the deposited data

Results flagged for a closer look

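Each late difference flagged here differed between WT and PHO84c by limma's test of the difference itself over the 8 later samples (WT minus PHO84c, log2). Above PHO84c in WT were probe 3394 (3.39), INP51 (3.29), probe 1108 (2.90), GAS4 (2.75), RRD2 (1.94), NGL1 (1.78), JIP3 (1.76) and YTM1 (1.17). Below PHO84c in WT were probe 14143 (-4.15), probe 5032 (-3.50), ISA1 (-2.63), WTM1 (-2.29), SBE22 (-2.09), SCT1 (-1.92), PLC1 (-1.81) and MRP51 (-1.41). Probe 1108 had a late difference of 7.27 in WT against 4.36 in PHO84c. Probe 5032 stood at 0.54 in WT against 4.04 in PHO84c. All of these calls were lost after quantile normalization, where the strain difference of GAS4 was -1.66. YTM1, named for a ribosome assembly factor, fell by 2.42 in WT and stood at -3.59 in PHO84c. Without the WT sample at 8 h the calls of JIP3, YTM1 and MRP51 were lost (limma adjusted p = 0.0741, 0.1 and 0.0685). Without that at 5 h YTM1 and MRP51 lost theirs (0.081 and 0.0545), and without that at 1 h JIP3 did (0.0528).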

How the results depend on the processing

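For the WT difference and for replicate numbers in general, no paired analysis was possible because the samples at 1, 5, 8 and 23 h carry no such number. The strain difference could be paired by time, and with time as a block it gave 247 strain differences (85 above PHO84c, 162 below) and kept 169 of the 184. Leaving out 1 early WT sample in turn gave 2887 to 2909 calls in WT (1330 to 1355 higher, 1552 to 1579 lower) and 52 to 137 for the strain difference (17 to 43 above PHO84c, 35 to 94 below). They kept 97.5% to 97.7% of the WT calls. Quantile normalization, which forces the wide 23 h sample onto the spread of the others, left 933 calls in WT (489 higher, 444 lower) and 0 for the strain difference, where 123 probes had an unadjusted limma p under 0.05. It kept 890 of the 2870 WT calls and changed the sign of 60 of them and of 5 of the 184 strain differences. Among named probes it reversed IMD3 (-0.15), GAS4 in WT (-1.52) and the strain difference of GAS4 (-1.66). With treat against a 2-fold null, 1716 calls remained in WT (849 and 867) and 3 for the strain difference (2 and 1). With no minimum difference, 1834 probes were higher and 2383 lower in WT. Against 8 h alone, 19 strain differences passed (6 and 13). Median centring moved the median difference from -0.19 to 0.02, and 2604 of the 2870 WT calls were kept, with 0 changes of sign. RRN7 lost its WT call without the 1 h sample, PUT2 without the 5 h sample and probe 14143 without the 8 h sample. Against 0 h instead of the early times, 2721 probes were called. The ratios carry no signal over background, so what dim probes limit is not known.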
